A study of Mus musculus with 4 samples.

Results

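The genes described here were at least 2-fold dimmer on the arrays labelled Ackr4ko than on those labelled WT in both experiments of a study of cultured mouse B cells. A gene was taken when its log2 signal on the array labelled Ackr4ko minus that on the array labelled WT was at most -1 in experiment 1 and again in experiment 2. Of 15110 genes that passed a filter on dim probes, 59 met this (0.39%), against 205 (1.36%) with a difference of at least 1 in both. Leaving out 6 genes on chromosome 9, 3 on chromosome 16 and Pik3r3 gave 49 genes, of which 34 carry an established symbol and 15 a provisional or clone name. The genotype differences themselves chose these genes, so they are given as values with no test.

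The cells were spleen B cells, isolated on magnetic columns and kept in culture for 3 days with anti-IgM, which crosslinks their antigen receptor, and an anti-CD40 antibody (clone FGK4.5), which takes the place of T cell help, each at 10 µg/mL. The 2 arrays labelled Ackr4ko came from male mice deficient in Ackr4, aged 73 days in experiment 1 and 71 days in experiment 2. The 2 arrays labelled WT came from male C57BL/6 mice aged 77 days in experiment 1 and 74 days in experiment 2. Each experiment used different donors and gave 1 array per genotype, so n = 2 per group and experiment, donor and culture cannot be told apart. The labels do not name the strain on which the Ackr4 deficiency was kept, and it is not stated whether an array holds 1 mouse or a pool. Differences of cell make-up and of RNA per cell cannot be told apart in such bulk cultures.

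Ackr4 scavenges the chemokines CCL19, CCL21 and CCL25, which guide lymphocytes, without passing on a G protein signal. A B cell that is activated through its antigen receptor and CD40 grows, divides and leaves the resting state, losing homing and adhesion molecules on the way. It can then become a plasma cell, which turns its cytoplasm over to secretion, or enter a germinal centre. Proteins of secretory granules, extracellular nucleases and apolipoproteins are mostly known from other cells, and several of the genes below are best known from macrophages, mast cells, eosinophils, testis or liver.

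The depth of these arrays and 1 conflict between the deposited files bear on all values. The array labelled WT of experiment 2 stood apart: 6.24% of its spots were outliers, against 1.79% to 2.12% on the other 3 arrays, and its floor was the highest. This floor, taken as the dimmest log2 signal still well above background, was 3.82 for Ackr4ko and 4.31 for WT in experiment 1, and 4.60 for Ackr4ko and 5.84 for WT in experiment 2. In the authors' value table, all 4 columns matched best the scanner array that carries the opposite genotype label within their experiment (0 of 4 matched their own). Every direction below follows the scanner files and turns round if the table's labels are right. As labelled in the table, 48 of the 49 genes were brighter under Ackr4ko in both experiments, 43 of them at least 2-fold. Wdfy3 was the exception, with 1.68 and -0.32. The table's difference in experiment 2 was also small for ENSMUST00000118839 (0.02), Defa-rs2 (0.35) and 5031439G07Rik (0.47). All 18 B cell identity genes on a list that includes Cd79a, Cd79b and Pax5 passed the filter, and 0 of them were above background on no array.

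**Figure D1:**
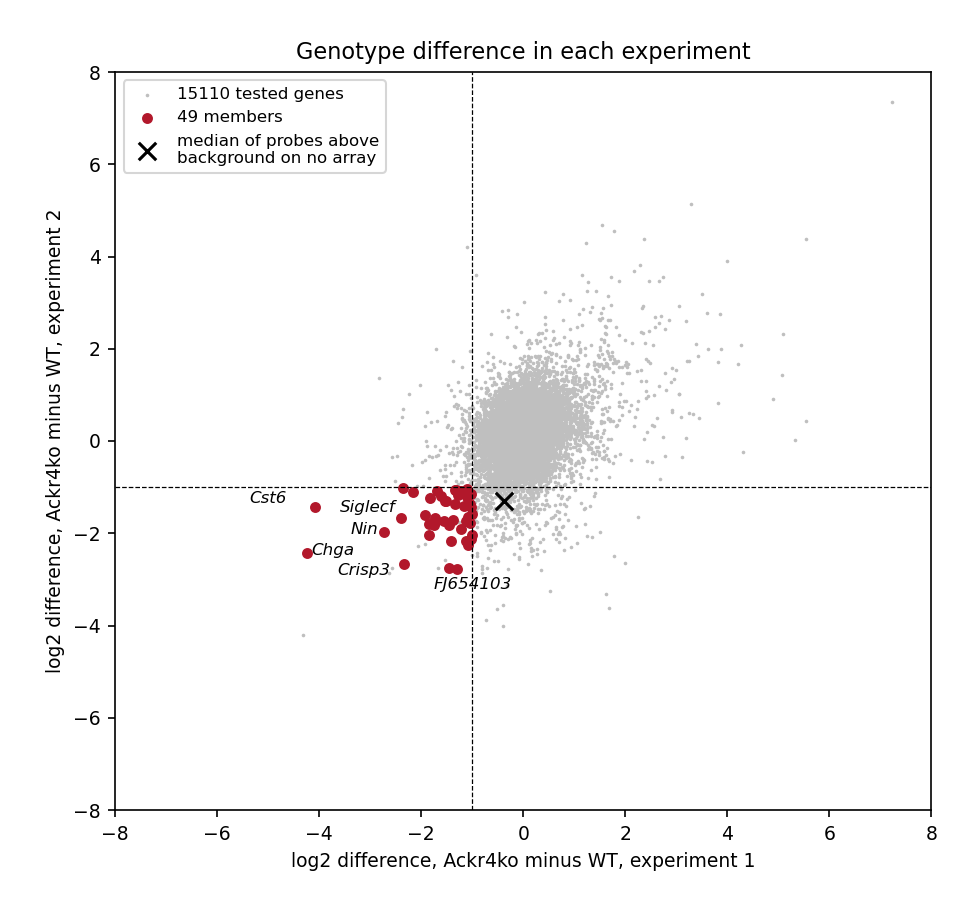
Log2 difference (Ackr4ko minus WT) in experiment 1 on the x axis and in experiment 2 on the y axis, 1 point per gene. The 49 genes (red) lie at or below -1 on both axes, and the cross marks the median of 17177 probes above background on no array, -0.38 in experiment 1 and -1.29 in experiment 2.

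Dim probes differed between the 2 arrays of experiment 2 before any gene is considered. Among 17177 probes that were above background on no array, the median difference was -0.38 in experiment 1 and -1.29 in experiment 2, and 83.6% of them were at or below -1 in experiment 2, against 1.27% in experiment 1. A probe near the floor could thus be at or below -1 in experiment 2 with no signal above background. Of the 49 genes, 38 were above background on all 4 arrays. Defa-rs2 and ENSMUST00000118839 were above it on 0 of the 2 arrays labelled Ackr4ko. Chga, Gm10561, Mei1, Dnase1l3 and Hdc missed it on the array labelled Ackr4ko of experiment 2, Wdfy3 on that of experiment 1, and Astl, 1810014B01Rik and Tmem151b on the array labelled WT of experiment 2. The median log2 level over the 4 arrays was 8.42 for the 49 genes, against 10.27 for all tested genes.

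**Figure D2:**
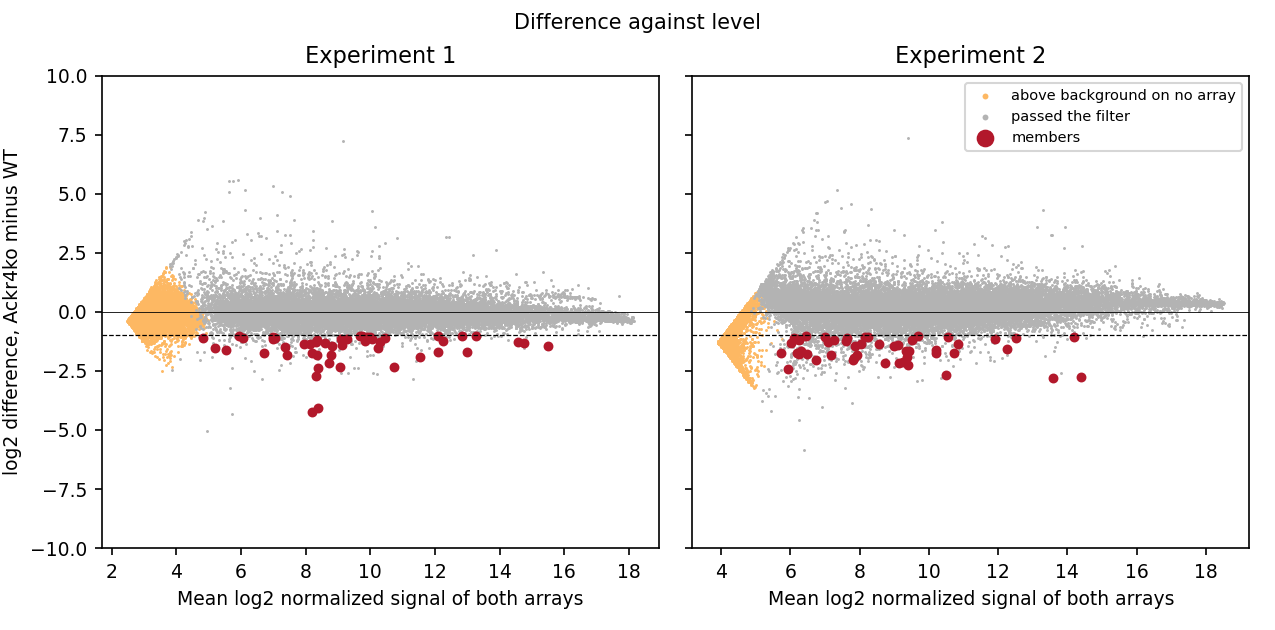
Log2 difference (Ackr4ko minus WT, y axis) against the mean log2 signal of the 2 arrays (x axis), experiment 1 left and experiment 2 right. Probes above background on no array (orange) centre on -0.38 in experiment 1 and on -1.29 in experiment 2, and the 49 genes are red.

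A background correction by normexp, with an offset of 50 added to each spot, shrinks the log2 differences of dim probes by construction. A split of the genes by brightness under it follows in part from that offset. All 49 stayed negative in both experiments under it, and 22 stayed at or below -1. Of the 15 genes with a log2 signal under 8 on the array labelled WT of experiment 2, 0 kept the 2-fold difference, against 22 of the 34 brighter ones. The genes that were above background on all 4 arrays and at or below -1 in both experiments under quantile, median, normexp and outlier-free scaling numbered 18. They were Crisp3, Nin, Siglecf, Afp, Ms4a7, Apoe, Xkrx, Tgfb3, Sema4b, Sh3tc1, Fes, Exoc3, FJ654103, Gm42102, 5930433N17Rik, B430306N03Rik, TC1598077 and BC064822. This combination was counted after the values were seen.

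The mean of both experiments ranged from -3.33 for Chga to -1.07 for Auts2, with a median of -1.53, against 0.09 for all tested genes. It was at or below -2 in 7 genes, between -2 and -1.5 in 18 and above -1.5 in 24. The difference was larger in experiment 1 for 23 genes and in experiment 2 for 26. In 41 genes both arrays labelled Ackr4ko lay below both labelled WT, which held for 9.76% of all tested genes. A difference of at most -1 in both experiments chose these genes, so the higher share follows largely from the rule. The 8 whose groups overlapped were Apoe, Dnase1l3, Wdfy3, Irs2, Tacc2, Exoc3, Brpf3 and Tmem151b. The 4 spots of a probe had a median SD of 0.071 log2 units over the 49 genes and at most 0.587, for Defa-rs2.

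The secreted proteins held the largest differences. Chga encodes chromogranin A, an acidic protein packed into the secretory granules of neuroendocrine cells. Its log2 values were 6.08 and 4.72 on the arrays labelled Ackr4ko, against 10.32 and 7.14 on those labelled WT, in experiments 1 and 2. The array labelled WT of experiment 1 was the brightest, and the value of 4.72 was not above background. The differences were -4.24 and -2.42, and a normexp correction gave -3.47 and -0.78. The probe lies at chr12:103803083-103803142 (mm9, plus strand).

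Cst6 encodes cystatin E/M, a secreted inhibitor of cysteine proteases. The arrays labelled Ackr4ko gave 6.35 and 7.16, against 10.43 and 8.60 on those labelled WT. Both groups were above background throughout and did not overlap, and the difference was -4.08 in experiment 1 and -1.44 in experiment 2. In experiment 2 the normexp difference was -0.94. The probe lies at chr19:5347982-5348041 (mm9, minus strand).

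Crisp3, a cysteine-rich secretory protein, had the steadiest large difference. The arrays labelled Ackr4ko gave 9.57 and 9.17, against 11.91 and 11.83 on those labelled WT. The differences were -2.34 and -2.66, a mean of 5.65-fold, and normexp gave -2.22 and -2.46. The 2 arrays of each genotype lay closer to each other than to any array of the other genotype. The probe lies at chr17:40358752-40358811 (mm9, minus strand).

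Afp encodes alpha-fetoprotein, the main serum protein of fetal liver and yolk sac. Signals of 7.33 and 7.03 on the arrays labelled Ackr4ko stood against 9.06 and 8.84 on those labelled WT. The 2 experiments gave almost the same difference, -1.74 and -1.81. The probe lies at chr5:90937781-90937840 (mm9, plus strand).

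Apoe encodes apolipoprotein E, which carries lipids and is made by liver cells and macrophages. It was bright, with 12.13 and 9.87 on the arrays labelled Ackr4ko, against 13.83 and 11.60 on those labelled WT. The genotype differences were alike, -1.70 and -1.73, but both arrays of experiment 2 lay below both arrays of experiment 1. The array labelled WT of experiment 2 was therefore dimmer than the array labelled Ackr4ko of experiment 1.

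Tgfb3, a cytokine of the transforming growth factor beta family, had 8.53 and 7.66 on the arrays labelled Ackr4ko, against 9.66 and 9.82 on those labelled WT. The difference was -1.13 in experiment 1 and -2.16 in experiment 2. Dnase1l3 encodes a secreted nuclease that digests chromatin in the circulation. It had 7.27 and 5.34 on the arrays labelled Ackr4ko, the second not above background, against 8.64 and 7.06 on those labelled WT. Its differences of -1.37 and -1.72 came with a normexp value of -0.73 in experiment 2.

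The promoters of Chga, Crisp3 and Afp are shown because these secreted products were among the genes with the largest differences and each holds the letters TATAAA. RefSeq (GRCm38.p6) promoters, 250 bases before to 50 after the start, were matched for 32 of the 49 genes. TATAAA was found, on either strand, in 3 of the 32 (9.38%) and in 7.86% of the 9760 promoters of tested genes, so the share was close to that of all promoters. The capitals mark TATAAA, whose first base lies 31 bases before the RefSeq start in Crisp3, 7 before it in Afp and 5 after it in Chga. The windows are chr12:102554691-102554990 on the plus strand for Chga, chr17:40242239-40242538 on the minus strand for Crisp3 and chr5:90490464-90490763 on the plus strand for Afp.
Chga: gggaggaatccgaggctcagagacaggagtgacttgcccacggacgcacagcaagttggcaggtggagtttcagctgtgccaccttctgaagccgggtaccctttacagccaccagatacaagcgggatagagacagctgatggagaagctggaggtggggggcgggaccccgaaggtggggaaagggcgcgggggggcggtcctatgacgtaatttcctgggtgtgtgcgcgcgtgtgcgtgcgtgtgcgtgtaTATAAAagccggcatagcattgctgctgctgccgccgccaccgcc
Crisp3: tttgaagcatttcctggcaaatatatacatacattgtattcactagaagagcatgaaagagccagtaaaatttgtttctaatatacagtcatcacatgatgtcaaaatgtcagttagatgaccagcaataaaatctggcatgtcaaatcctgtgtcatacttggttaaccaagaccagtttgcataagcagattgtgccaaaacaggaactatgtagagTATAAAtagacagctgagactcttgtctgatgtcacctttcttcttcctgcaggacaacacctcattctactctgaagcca
Afp: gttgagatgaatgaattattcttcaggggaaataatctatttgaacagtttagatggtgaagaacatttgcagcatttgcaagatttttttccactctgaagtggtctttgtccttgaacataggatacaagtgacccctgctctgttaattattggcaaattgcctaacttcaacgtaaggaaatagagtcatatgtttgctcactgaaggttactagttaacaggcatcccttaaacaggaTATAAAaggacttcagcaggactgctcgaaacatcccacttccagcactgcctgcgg

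Other motifs were searched in the same way, on both strands. CAGCTG, an E box, was in 7 of the 32 promoters (21.9%, against 14.6% of all), among them those of Chga, Crisp3 and Nin. TGANTCA, an AP-1 site, was in 4 (12.5%, against 4.85%), those of AF067061, Sh3tc1, Tacc2 and Xkrx. GAGGAAGT, a PU.1 site, was in 2 (6.25%, against 3.35%), those of B430306N03Rik and Hpgds. The counts are small, and no difference from the share of all promoters was tested.

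Receptors and membrane proteins formed the next group. Siglecf encodes a receptor for sialic acid known from eosinophils and alveolar macrophages. It had 7.18 and 8.61 on the arrays labelled Ackr4ko, against 9.57 and 10.27 on those labelled WT. The groups did not overlap, and the differences were -2.39 and -1.67 (probe at chr7:50614768-50614827, mm9, plus strand). A second Siglecf probe, above background on 1 array, gave -2.55 and -2.28.

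Ms4a7 and Ms4a4a encode related membrane proteins of the family of the B cell antigen CD20 and are best known from macrophages. Ms4a7 had 10.58 and 9.39 on the arrays labelled Ackr4ko, against 12.51 and 11.00 on those labelled WT, with differences of -1.93 and -1.61. Ms4a4a had 7.65 and 7.09 on the arrays labelled Ackr4ko, against 9.82 and 8.20 on those labelled WT, with differences of -2.16 and -1.12. Their probes lie 71.3 kb apart on chromosome 19, and both genes were brighter in experiment 1 in each genotype.

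Sema4b, a membrane semaphorin, had 8.08 and 6.26 on the arrays labelled Ackr4ko, against 9.53 and 8.09 on those labelled WT. The differences were -1.45 and -1.83. Xkrx, an XK-related membrane protein, had 9.44 and 8.25 on the arrays labelled Ackr4ko, against 10.52 on both arrays labelled WT. Here the WT level was the same in both experiments, and the differences were -1.09 and -2.27.

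Among signalling proteins, Irs2, an adaptor of the insulin and interleukin 4 receptors, had 11.26 and 10.03 on the arrays labelled Ackr4ko, against 12.94 and 11.11 on those labelled WT. Its groups overlapped across experiments, and the differences were -1.68 and -1.08. Matk, a kinase that restrains Src family kinases, had 12.78 and 11.48 on the arrays labelled Ackr4ko, against 13.78 and 13.06 on those labelled WT. With -1.003 and -1.59 it lay at the edge of the rule. Fes, a tyrosine kinase studied mostly in myeloid cells, had 9.48 and 8.42 on the arrays labelled Ackr4ko, against 10.65 and 9.83 on those labelled WT, with differences of -1.16 and -1.41. Sh3tc1, a protein with SH3 and tetratricopeptide domains, had 9.22 and 8.43 on the arrays labelled Ackr4ko, against 10.45 and 10.34 on those labelled WT, with differences of -1.22 and -1.91.

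Enzymes of mediators and metabolism were represented by Hdc, Hpgds, Msrb2 and Dpp7. Hdc makes histamine from histidine. It had 6.46 and 5.60 on the arrays labelled Ackr4ko, the second not above background, against 7.51 and 7.38 on those labelled WT, with a mean difference of -1.41. Hpgds, the haematopoietic synthase of prostaglandin D, had 7.43 and 7.005 on the arrays labelled Ackr4ko, against 9.26 and 8.24 on those labelled WT, with differences of -1.84 and -1.24. Both genes were dim, and under normexp the difference of experiment 2 was -0.84 for Hdc and -0.82 for Hpgds.

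Msrb2, a mitochondrial methionine sulfoxide reductase, had 9.25 and 8.19 on the arrays labelled Ackr4ko, against 10.26 and 10.31 on those labelled WT. The differences were -1.02 and -2.12. Dpp7, a dipeptidyl peptidase linked to the quiescence of lymphocytes, had 9.65 and 8.92 on the arrays labelled Ackr4ko, against 10.93 and 10.10 on those labelled WT. The differences were -1.28 and -1.17, with no overlap of the groups.

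Of the genes for structural and intracellular proteins, Nin had the largest difference. It encodes ninein, which anchors microtubules at the centrosome. The probe that represents it had 6.97 and 6.86 on the arrays labelled Ackr4ko, against 9.70 and 8.82 on those labelled WT, and the differences were -2.73 and -1.97. Synpo, an actin-bundling protein of spines and podocytes, had 6.61 and 6.43 on the arrays labelled Ackr4ko, against 8.11 and 7.73 on those labelled WT, with differences of -1.51 and -1.29. Wdfy3, an adaptor that brings aggregates to autophagosomes, had 4.74 and 6.68 on the arrays labelled Ackr4ko, the first not above background, against 6.36 and 7.87 on those labelled WT. Its differences of -1.62 and -1.19 sat on a level that was higher in experiment 2 in both genotypes. Mei1, needed for meiotic recombination, had 5.85 and 5.48 on the arrays labelled Ackr4ko, the second not above background, against 7.58 and 7.15 on those labelled WT, with differences of -1.73 and -1.67.

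**Figure D3:**
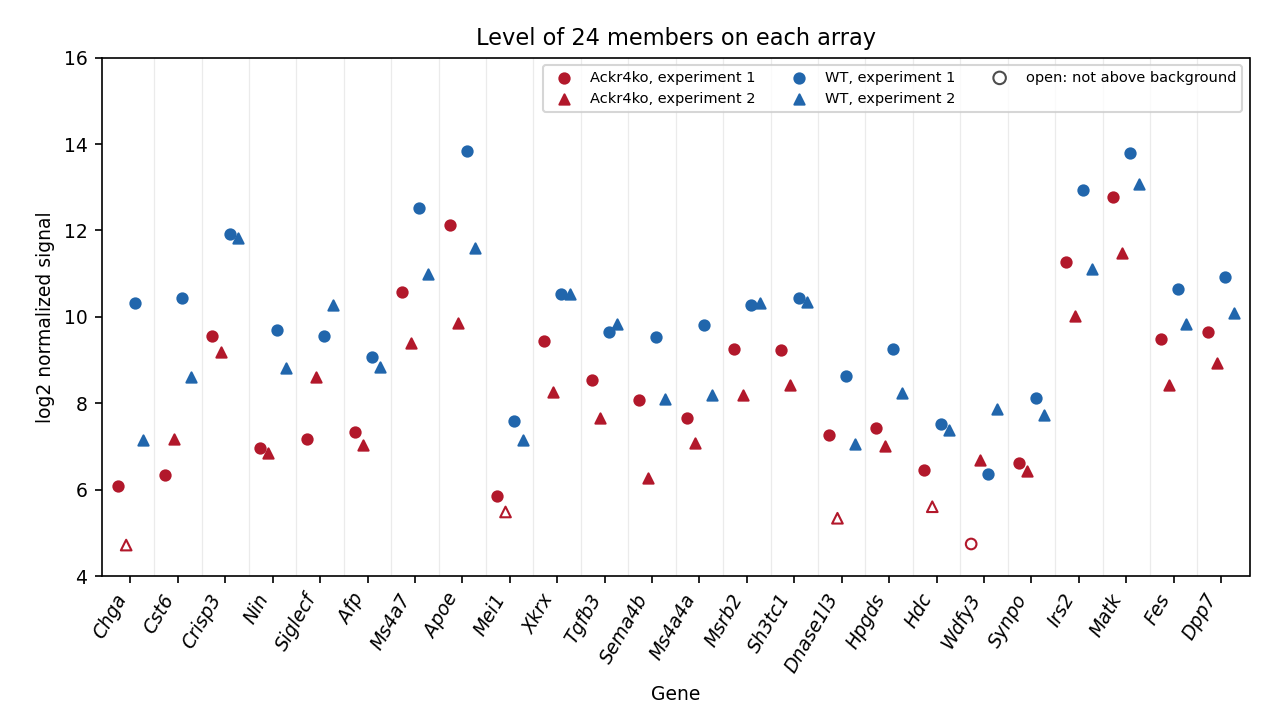
Log2 normalized signal (y axis) on each of the 4 arrays for the 24 genes with an established symbol and the most negative mean difference (x axis, largest difference left). Within a gene the points run Ackr4ko experiments 1 and 2 (red), then WT experiments 1 and 2 (blue). Open symbols are not above background, as for Chga at 4.72 and Wdfy3 at 4.74.

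The other 10 genes with an established symbol had mean differences of -1.22 to -1.07. They were Tacc2, a centrosomal coiled-coil protein, Exoc3, a subunit of the exocyst, Ephb6, an ephrin receptor without kinase activity, and Gpm6b, a membrane protein of the proteolipid family. The rest were Plcxd1, Astl, an oocyte metalloprotease, Brpf3, a scaffold of histone acetyltransferases, Tmem151b, Icam2, an adhesion molecule that binds the integrin LFA-1, and Auts2. Icam2 and Plcxd1 were bright. Icam2 had 12.31 and 11.34 on the arrays labelled Ackr4ko, against 13.33 and 12.48 on those labelled WT, with differences of -1.02 and -1.15. Plcxd1 had 11.62 and 11.96 on the arrays labelled Ackr4ko, against 12.85 and 13.06 on those labelled WT, with differences of -1.23 and -1.10.

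The 15 genes without an established symbol included the brightest of all. These are named here after their values were seen. FJ654103, which the array describes as the U3 region of an endogenous retrovirus, had 14.75 and 13.01 on the arrays labelled Ackr4ko, against 16.22 and 15.77 on those labelled WT. The differences were -1.46 and -2.76. Gm42102, an uncharacterized transcript, had 13.93 and 12.20 on the arrays labelled Ackr4ko, against 15.22 and 14.99 on those labelled WT, and its differences of -1.29 and -2.79 were close to those of FJ654103. Another bright probe, Gm42035, described as similar to the NYNRIN protein, had 14.10 and 13.66 on the arrays labelled Ackr4ko, against 15.41 and 14.73 on those labelled WT. Background is remote from all 3.

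At the other end, Defa-rs2 and ENSMUST00000118839 were above background on no array labelled Ackr4ko. With those arrays at their measured signal, the arrays labelled WT were brighter by 2.69-fold for Defa-rs2 and 2.68-fold for ENSMUST00000118839 (means of 6.00 and 6.32 log2 units there). These are not lower bounds. Under normexp the differences in experiments 1 and 2 were -0.61 and -0.73 for Defa-rs2, short of 2-fold. For ENSMUST00000118839 they were -0.79 and -0.61. The remaining 10, among them 5930433N17Rik (-1.94), Gm10561 (-1.82), B430306N03Rik (-1.79) and A_55_P2142668 (-1.68), had mean differences of -1.94 to -1.14.

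The threshold cut through a continuum. The genes just inside were Matk, with -1.003 in its weaker experiment, 5031439G07Rik (-1.01) and Msrb2 (-1.02). Just outside lay Orai2, a subunit of calcium entry channels, with differences of -0.9998 and -1.09, Gas7 with -0.998 and -2.46, and Ell3 with -0.991 and -1.54.

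Several genes were read by more than 1 probe, and the probes did not always show the same difference. Of the 49 genes, 12 had another probe, and in 5 of them another probe passed the filter. That other probe was at or below -1 in both experiments in 0 of the 5 and negative in both in 2. For Fes it gave -0.79 and -1.23, and for AF067061 -0.67 and -1.23. For Exoc3 it gave -0.72 and 0.01, and for Synpo -0.33 and 0.54. On the arrays labelled Ackr4ko the other Synpo probe was brighter than the representing one (6.95 and 7.57, against 6.61 and 6.43). On those labelled WT it was dimmer (7.28 and 7.03, against 8.11 and 7.73). The probe that represents Synpo was thus chosen as the brightest through its signal on the arrays labelled WT.

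Nin showed the widest spread. All 3 of its probes lie on the minus strand of chromosome 12 (mm9). The one at 71119926 to 71119985 represents the gene (-2.73 and -1.97). The one at 71126369 to 71126428, above background in experiment 1 only, gave -1.62 and -2.20. The last, at 71112542 to 71112601, was above background on all 4 arrays, with 8.34 and 7.46 on the arrays labelled Ackr4ko, against 8.15 and 7.56 on those labelled WT. Its differences were 0.19 and -0.10. This probe was brighter than the representing one on both arrays labelled Ackr4ko and dimmer on both labelled WT. The probe that represents Nin was thus also chosen through its signal on the arrays labelled WT. The first 30 bases of each probe are shown, since the value differed with the stretch that was read. Whether the probes read different Nin isoforms was not tested.
Nin 71126369: tccatttggaaaacgaaggtctgaagaaga
Nin 71119926: gattcagtcacaaacttctgcttgctacaa
Nin 71112542: acaaaacaattaaaacccagaagtaaaacc

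**Figure D4:**
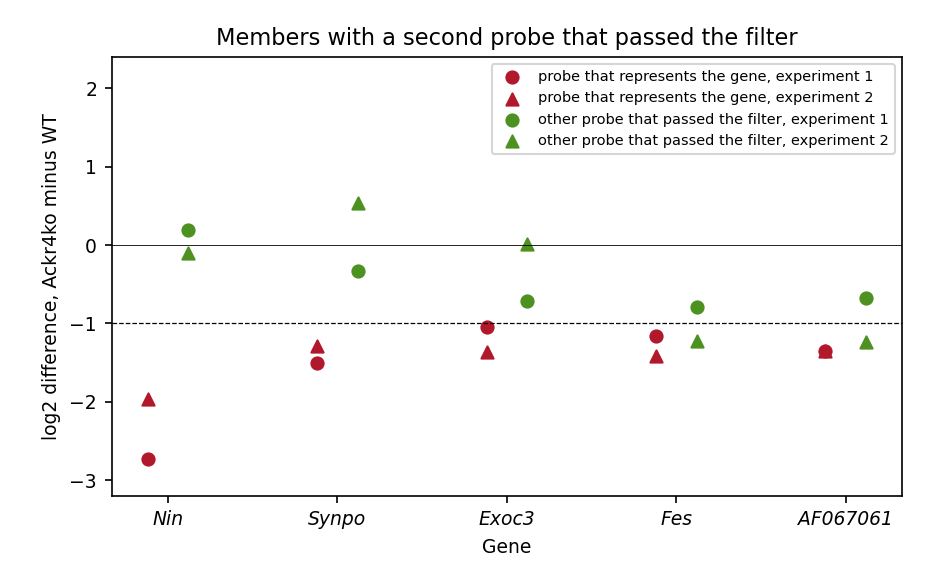
Log2 difference (Ackr4ko minus WT, y axis) of the probe that represents each gene (red) and of its other probe that passed the filter (green), in experiment 1 (circles) and experiment 2 (triangles), for the 5 genes with such a probe (x axis). The other Nin probe lies at 0.19 and -0.10, while the one that represents the gene lies at -2.73 and -1.97.

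Some probes cannot be tied to 1 gene. The AF067061 probe shares a run of 30 bases with the probe of Gm20767, which was above background on 2 arrays and gave -1.79 and -1.91. Which of both transcripts each probe read was not tested. RefSeq places both on chromosome 13. The Tmem151b probe overlaps a probe of Tcte1 on the opposite strand by 57 bases, and the Tcte1 probe was above background on 0 arrays. TC1598077 is read by a probe made mainly of a 6-base unit, GGCTCA, repeated 7 times in the 60 bases at chr7:116988975-116989034 (mm9, minus strand). Only 2 of the 39429 probes on the array hold 3 or more copies of that unit. Its log2 values were 9.46 and 9.33 on the arrays labelled Ackr4ko, against 11.01 and 11.06 on those labelled WT. The shared run and the repeat probe are printed because they limit which transcript these values belong to, with the repeat unit in capitals.
AF067061 and Gm20767: catctgggttttggttgtgtttgtttattt
TC1598077: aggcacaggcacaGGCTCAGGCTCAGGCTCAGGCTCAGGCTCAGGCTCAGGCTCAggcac

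The difference between the experiments is a measure that the choice of genes did not use. It was tested over all 15110 genes with limma, experiment 2 minus experiment 1, with genotype in the model. Over all tested genes 3.22% were called at a Benjamini-Hochberg adjusted p under 0.05, 1.14% lower and 2.08% higher in experiment 2. Of the 49 genes 15 were called, 14 lower and 1 higher in experiment 2. The median difference was -0.59 for the 49 genes, against 0.04 for all tested genes, and 40 of the 49 were lower in experiment 2 (81.6%, against 46.0% of all tested genes).

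Tmem151b had the largest difference between experiments, -3.19 ± 0.35 (SE, limma adjusted p = 1.17e-16). Its values were 5.56 and 6.64 on the arrays labelled Ackr4ko and WT in experiment 2, the WT value not above background, against 8.72 and 9.85 in experiment 1. Chga differed by -2.27 (limma adjusted p = 2.75e-08) and Apoe by -2.25 (limma adjusted p = 4.06e-08). Dnase1l3 followed with -1.76 (limma adjusted p = 7.63e-05), Sema4b with -1.63 (limma adjusted p = 0.000362) and Irs2 with -1.53 (limma adjusted p = 0.00105). Ms4a7, Brpf3, Tacc2, Exoc3, Gm10561, BC064822, FJ654103 and Ms4a4a were also called lower, with differences of -1.35 to -1.09. Wdfy3 alone was called higher in experiment 2, by 1.72 (limma adjusted p = 0.000117). The Ackr4ko value of experiment 2 was not above background for Chga, Dnase1l3 and Gm10561, nor was the Ackr4ko value of experiment 1 for Wdfy3, so the sizes of these differences rest on values not above background.

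The genes with the largest genotype differences were not all among those called. Crisp3 (-0.23), Afp (-0.26), Nin (-0.49) and Cst6 (-0.50) were not called between the experiments, nor was Siglecf, with a difference of 1.07 (limma adjusted p = 0.0575). The fit leaves 1 residual degree of freedom and gave every gene the same SE of 0.345, so these p-values follow the size of the difference alone. No gene was called after quantile normalization, in the whole table or among the 49 (0 called, with 2180 of 15110 genes at an unadjusted p under 0.05), nor without the genotype term (0 called, 1363 at an unadjusted p under 0.05).

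**Figure D5:**
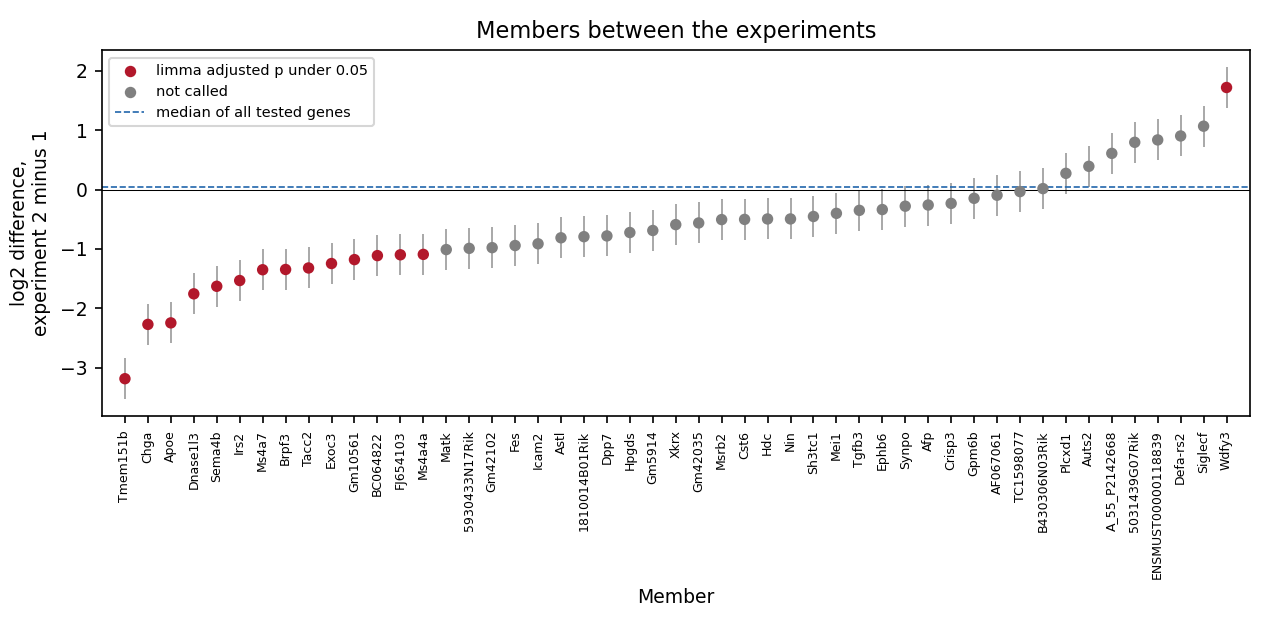
Log2 difference between experiments (experiment 2 minus experiment 1, y axis) with its SE from limma (bars, 0.345 for every gene) for the 49 genes (x axis, lowest first). Red points passed an adjusted p under 0.05, and the dashed line is the median of all tested genes, 0.04.

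Lists of related genes place these genes among their pathways. Cst6 was the only one of 14 tested protease inhibitors at least 2-fold dimmer on the arrays labelled Ackr4ko in both experiments, and the median of that list was 0.25, against 0.09 for all tested genes. Chga was 1 of 9 tested secretory granule genes (list median 0.06), and 8 of the 18 on the array were above background on no array. Nin was 1 of 17 tested centrosome genes (list median -0.01). The next most negative genes of these lists were Spint2 at -0.38, Rab3a at -0.23 and Pcm1 at -0.31. Tacc2 (-1.22), another centrosomal protein among the 49, is not on the centrosome list.

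The resting B cell list had no gene among the 49 but a median of -0.25, with 11 of its 30 genes lower and 2 higher in both experiments on the arrays labelled Ackr4ko (36.7% and 6.67%, against 19.9% and 34.1% of all tested genes). Pecam1, an adhesion molecule, had 9.03 and 7.68 on the arrays labelled Ackr4ko, against 9.61 and 9.27 on those labelled WT. Its difference was -0.58 in experiment 1 and -1.59 in experiment 2. The list median was -0.02 in experiment 1 and -0.58 in experiment 2. No gene of this list was called between genotypes by limma without the experiment in the model, where 0.0132% of tested genes were called. With the experiment as a replicate block 3.17% of tested genes were called, and calls of this list were not counted there.

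Other B cell lists had medians of -0.17 (B cell identity, lowest for Fcrla at -0.79 and Btk at -0.75), -0.15 (marginal zone and B1 cells, Bhlhe41 at -0.69 and Cd1d1 at -0.68) and 0.16 (plasma cells, Slamf7 at -0.41 and Sdc1 at -0.39). The interferon response list had -0.20 (Rtp4 at -0.72 and Mx2 at -0.66), but its median was 0.18 in experiment 1 and -0.53 in experiment 2, and 18 of its 31 tested genes had opposite signs in the experiments. The median was -0.08 for the phosphoinositide 3-kinase list (Sgk1 at -0.71 and Pik3ip1 at -0.44). No gene of these lists was among the 49.

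Markers of macrophages are given beside Ms4a7, Ms4a4a, Apoe and Fes, which macrophages also express. Of 19 macrophage and monocyte genes on the array, 10 were above background on no array, among them Lyz2, C1qa, Cd14 and Mrc1, and 8 were tested. Ms4a7 was one of the 8. The other 7 summed to 15.24 and 14.86 log2 units on the arrays labelled Ackr4ko, against 15.57 and 15.63 on those labelled WT, and the median difference was -0.29, with 3 lower and 3 higher in both experiments. Mpeg1, the lowest of them, differed by -0.46 and -1.09 in experiments 1 and 2. Adgre1 differed by -0.34 on average, while Cd68 (0.51) and Hmox1 (0.69) were brighter on the arrays labelled Ackr4ko. The part of macrophages in the 4 genes was not tested.

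Hdc, Hpgds and Siglecf are known from mast cells and eosinophils. Of 16 neutrophil and mast cell genes on the array, 12 were above background on no array, including Cpa3, Mcpt8 and Ms4a2, and the 3 tested had a median of 0.24 (lowest for Elane at -0.08 and Lcn2 at 0.24). Those 3 summed to 10.19 and 10.25 log2 units on the arrays labelled Ackr4ko, against 10.03 and 9.86 on those labelled WT. T cell genes had a median of 0.04 over 10 tested (Cd6 at -0.74). Dendritic cell genes had 1.03 over 8 (lowest for Tcf4 at -0.24 and Siglech at -0.01), and NK and innate lymphoid genes 1.11 over 7 (lowest for Nkg7 and Prf1 at 0.34). Named after their values were seen, Batf3 (2.74), Ccl22 (2.34), Ccl5 (2.63) and Rora (2.52) were the brightest of these on the arrays labelled Ackr4ko relative to those labelled WT. Batf3, Fscn1, Rora and Tbx21 were above background on the arrays labelled Ackr4ko alone, and passed the filter through those arrays only. That filter favours a brighter signal there but does not fix the sign, as the floors of the arrays differ. Without the filter the medians were -0.24 for the dendritic cell list and -0.64 for the NK and innate lymphoid list. Dropping it adds genes above background on no array, 6 of 15 for dendritic cells and 8 of 15 for NK and innate lymphoid cells. Over all such probes the median was -0.38 and -1.29 in experiments 1 and 2, so the unfiltered medians settle no direction. Nor do the filtered medians, which include genes seen on the arrays labelled Ackr4ko alone. Erythroid and platelet genes had 0.50 over 3 (Car1 at 0.04, Tfrc at 0.50), with -0.04 in experiment 1, 1.72 in experiment 2 and -0.35 without the filter. The median was -0.06 over 6 for endothelial and stromal genes (Acta2 at -1.32, Pecam1 at -1.09).

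In the genome the 49 genes were spread over 17 named chromosomes, with at most 6 on one (chromosomes 5 and 7), and 2 probes had no position. Besides Ms4a7 and Ms4a4a, Sema4b and Fes lie near each other, 151 kb apart on chromosome 7, with Man2a2 between them at -1.36 and -0.52. A tested gene within 500 kb with a mean difference of -0.7 or less was found for 16 of 46 genes (34.8%), against 31.6% of all genes with a neighbour, so neighbourhood was close to that of other genes. Among these neighbours were Parp8 near 5930433N17Rik (-1.53), Armc3 near Msrb2 (-1.44), S1pr4 near Matk (-1.23) and Pecam1 near Icam2 (-1.09). They were picked by the values themselves. The GC content of the probes had a median of 41.7% for the 49 genes, against 43.3% for all tested genes.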

How the data were processed

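Total RNA was measured on 4 one-colour Agilent arrays, with 50 ng of RNA and Cy3 labelling per the labels' protocols. The deposited scanner files give spot intensity, with probe positions on mm9. Per the submitters' processing notes, the software was Agilent Feature Extraction, version 10.7.3.1. The authors' value table holds 1 whole-number intensity per probe, with its normalization not given in the sources used here. All 4 arrays lay on 1 slide.

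Control and outlier spots were left out, log2 processed signals of the 4 spots of a probe were averaged, and log2 of the array's 75th percentile over its non-control spots was subtracted (1277 for Ackr4ko and 916 for WT in experiment 1, 740 for Ackr4ko and 913 for WT in experiment 2). A constant, the mean of these 4 percentiles on the log2 scale, was added back. A probe counted as above background where at least 50% of its spots were flagged so. It passed the filter when above background on at least 2 arrays, with at least 1 in each experiment (19527 of 39429 probes), and the brightest probe stood for a gene. The rule also left out Nrp1, Cd5 and Pik3r3 and the genes of chromosomes 9 and 16. Gene names came from accessions matched to RefSeq (GRCm38.p6) for 36 of the 49 genes, from symbols for 4, and from the array for 9.

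Models were fitted in R 4.3.3 with limma 3.58.1 (functions lmFit and eBayes), two-sided and with p-values adjusted by Benjamini-Hochberg over 15110 genes, after the code was tested on simulated data. The labels' replicates are 2 independent experiments, which pair 1 array of each genotype. A 2 against 2 exact permutation test cannot give a p below 0.333. The number of arrays limits the precision. For the experiment difference limma gave infinite prior degrees of freedom, so its p-values rest on 1 spread pooled over all genes. They do not measure a single gene's own spread between arrays. Genes and lists were chosen with earlier results of these data known. All genes with an established symbol are named, with values on every array for the 24 with the most negative mean and for list members. From each list the 2 most negative genes are named, apart from genes that are not reported here. Alternatives changed the normalization, background correction, filter, probe summary, gene name, threshold, values and arrays used.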

Additional observations from a re-analysis of the deposited data

Results flagged for a closer look

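Several genes named from the lists, and other probes of 3 of the 49 genes, had opposite signs in the 2 experiments. With 1 array per genotype in each experiment, the difference between experiments was not tested. As log2 Ackr4ko minus WT in experiments 1 and 2, Rtp4 gave 0.59 and -2.03, Mx2 0.20 and -1.52, Sdc1 0.12 and -0.90, and Rab3a 0.29 and -0.75. The opposite order was seen for Tfrc (-0.71 and 1.72), Nkg7 (-0.38 and 1.06), Prf1 (-0.015 and 0.69), Spint2 (-0.88 and 0.12), Lcn2 (-0.049 and 0.52), Elane (-0.27 and 0.11), Siglech (-0.21 and 0.20) and Car1 (-0.040 and 0.12). Among the other probes, Nin gave 0.19 and -0.10, Exoc3 -0.72 and 0.012, and Synpo -0.33 and 0.54.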

How the results depend on the processing

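The count of 49 genes was 28 with the median in place of the 75th percentile, 22 with normexp, 11 at a threshold of -1.5 and 212 without a filter on dim probes. From the value table as labelled it was 154, with 0 of the 49 among them. With quantile normalization (55, of which 48 are shared), with a filter on all 4 arrays (38), with the mean over probes (48), with current symbols (49) or with arrays below background at their floor (49) it stayed within 1.5 times, as it did with an outlier-free percentile, chosen after seeing the data (44). Leaving out 1 array leaves 1 experiment to judge by and gave 187 to 426 genes. Genotype calls over all genes numbered 2, and 479 with the experiment as a replicate block. They were 199 with the median, 57 with the outlier-free percentile, 16 with normexp, 1 with quantile normalization and 1 with the value table, and 0 with the filter on all 4 arrays (524 at an unadjusted p under 0.05) and 0 without a filter (294). Leaving out 1 array gave 1 to 191, with 50 without WT replicate 1 and 191 without WT replicate 2. Experiment calls numbered 487, and 0 with quantile normalization, the value table or no genotype term, 138 with the median and 11134 without a filter. Among the 49 genes they numbered 15, and 9 with the median and 0 with quantile normalization, the value table or no genotype term. The cause of these shifts was not tested. Leaving out 1 array leaves this fit no residual degree of freedom. The mean difference of each of the 49 genes kept its sign with quantile normalization, the median, normexp and the outlier-free percentile, and the value table as labelled turned all 49. Leaving out an array cannot turn a sign, since the choice of genes fixes it in both experiments, and the other alternatives were not computed gene by gene. List medians changed sign in 1 of 16 lists with quantile normalization, in 7 without the filter, and in 2 and 6 when judged on experiment 2 and on experiment 1. Values of dim genes are to be read with the high floor of the array labelled WT of experiment 2 in mind (5.84). Its part in these shifts was not tested.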
